A study of Mus musculus with 9 samples.

Results

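Heme synthesis in mouse liver was described through 7 enzyme genes, Alas1, Alad, Uros, Urod, Cpox, Ppox and Fech. They were picked by gene symbol, and all 7 were found among the 18148 symbols of the expression table. All 7 were also among the 10388 genes that were tested, those that reached a value of 1 in 3 or more libraries. Messenger RNA was measured in 9 liver libraries of C57BL/6J mice, 3 from each of 3 groups. Treatment mice received the plasticizer di(2-ethylhexyl) phthalate (DEHP) at 1500 mg/kg/d in corn oil together with green tea polyphenols at 70 mg/kg. DEHP mice received the same dose of phthalate in corn oil without polyphenols. Control mice received distilled water. All doses were given by gavage for 8 weeks, and the sources used here give neither age nor sex. Control mice had no corn oil, so effects of the phthalate and of its oil cannot be told apart. Groups given the oil alone or the polyphenols alone were not analysed here. Whether each library is a separate animal is not stated in the labels, and p-values therefore cover only how these 9 samples vary, possibly for technical reasons.

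Heme is the iron-bearing ring that lets cytochromes P450, catalase and the mitochondrial cytochromes handle oxygen and electrons. The liver makes much of its heme for P450 enzymes, and inherited defects of the pathway cause the porphyrias. Alas1, aminolevulinate synthase, joins glycine and succinyl-CoA in the mitochondrion and is the rate-limiting step outside red blood cells. Its production is held down by heme itself. Alad, Uros and Urod then build the ring in the cytosol, and Cpox, Ppox and Fech finish it at the mitochondrion, where Fech inserts the iron. The 7 genes do not cover every step of the pathway.

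Start-site sequences are shown for the 4 enzymes that passed the test in DEHP against Control (below), because Alas1 moved opposite to the other 3. RefSeq windows on GRCm38.p6, each of 300 bases from 250 before to 50 after a start site, existed for 6 of the 7 genes. The submitters' processing notes name the older build mm9, and no coordinates were converted. Each sequence runs 5′ to 3′ on the gene's strand, and capitals mark a match to a searched motif on either strand.
Alas1, GRCm38.p6 chr9:106247681-106247980, minus strand: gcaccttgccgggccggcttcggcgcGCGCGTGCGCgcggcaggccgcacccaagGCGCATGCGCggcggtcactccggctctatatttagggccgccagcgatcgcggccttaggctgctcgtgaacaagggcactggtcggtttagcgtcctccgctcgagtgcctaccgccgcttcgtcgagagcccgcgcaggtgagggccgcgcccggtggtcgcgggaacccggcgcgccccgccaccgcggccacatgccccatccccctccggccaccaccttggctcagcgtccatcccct
Alad, GRCm38.p6 chr4:62520014-62520313, minus strand: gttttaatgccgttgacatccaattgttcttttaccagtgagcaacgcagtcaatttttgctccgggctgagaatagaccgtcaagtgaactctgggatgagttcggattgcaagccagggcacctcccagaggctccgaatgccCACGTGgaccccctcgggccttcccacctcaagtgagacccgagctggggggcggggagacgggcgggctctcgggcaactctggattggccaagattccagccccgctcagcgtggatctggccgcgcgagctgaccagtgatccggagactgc
Uros, GRCm38.p6 chr7:133709246-133709545, minus strand: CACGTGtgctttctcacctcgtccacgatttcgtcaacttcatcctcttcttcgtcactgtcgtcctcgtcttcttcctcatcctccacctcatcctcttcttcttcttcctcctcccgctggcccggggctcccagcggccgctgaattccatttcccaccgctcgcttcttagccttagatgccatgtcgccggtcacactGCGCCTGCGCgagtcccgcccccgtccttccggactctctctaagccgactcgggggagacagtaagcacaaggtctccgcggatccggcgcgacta
Cpox, GRCm38.p6 chr16:58669958-58670257, plus strand: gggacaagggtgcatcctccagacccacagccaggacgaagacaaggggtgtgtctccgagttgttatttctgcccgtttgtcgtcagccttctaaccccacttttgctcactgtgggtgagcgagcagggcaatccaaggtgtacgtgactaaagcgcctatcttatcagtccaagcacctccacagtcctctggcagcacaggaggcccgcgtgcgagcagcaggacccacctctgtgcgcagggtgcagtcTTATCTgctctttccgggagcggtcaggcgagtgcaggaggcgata

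In the Alas1 window, the consensus of nuclear respiratory factor 1 (NRF1) occurred at -224 (on the minus strand) and at -195, where the match is a palindrome and reads on both strands. The same pair lay at 1 and 30 in a second Alas1 window that starts upstream of this one and overlaps it. This motif was also in the Uros window at -47, and in 4.6% of all 32851 windows of the table. The E-box CACGTG, bound by clock factors among others, occurred in the windows of Alad at -105, Uros at -250 and Urod at -49. It was in 7.15% of all windows. A second Alad window held another E-box at -28, and a second Uros window held none of the searched motifs. The Cpox window held the GATA motif AGATAA at 5, on the minus strand, as did 11.2% of all windows. The direct repeat of AGGTCA with 1 base between its copies (DR1), which nuclear receptors such as PPARA bind, was in 0.0396% of all windows, its single repeat unit AGGTCA in 16.3%, the antioxidant element TGACNNNGC in 12.4% and the cyclic AMP element TGACGTCA in 1.79%. None of these last 4 motifs was in the windows of the 6 genes, which says only that the letters are not in these windows.

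The values were of a kind scaled for depth and transcript length, so levels could be compared between genes. Among genes near the floor, the smallest value above 0 fell with the length of the longest transcript (Spearman correlation -0.70 over 2740 genes, a correlation across genes and not across independent replicates). The summed level of 9 hepatocyte markers was 74166 to 86143 in Treatment, 75668 to 77422 in DEHP and 90682 to 96350 in Control libraries. Control libraries 1 and 2 stood apart by transcripts of fat. Adipoq, which encodes adiponectin, had values of 33.7 and 61.0 there, with 0 listed for the other 7 libraries, and the summed level of 12 adipocyte markers was 1253 to 2177 in Treatment, 1039 to 1999 in DEHP and 2135 to 4299 in Control libraries. The summed level of 17 red blood cell markers was 1177 to 1928 in Treatment, 788 to 3606 in DEHP and 1578 to 3570 in Control libraries, with Rhag listed at 0 in all 9. In bulk tissue, fewer cells of a type and less RNA per cell cannot be told apart.

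By the test, the transcript of the rate-limiting enzyme fell in livers of DEHP mice while those of 3 later enzymes rose. Of 19 other settings (below), Cpox passed in 19, Alas1 in 15, Uros in 13 and Alad in 12. Alas1 was at 222, 169 and 167 in DEHP libraries, against 421, 394 and 310 in Control libraries. Every DEHP library lay below every Control library, and the DEHP mean of 186 ± 31.4 was 0.496 times the Control mean of 375 ± 57.8 (SD, n = 3 each). On the scale of log2(value + 1), Alas1 fell by 1.01 (SE 0.24, adjusted p = 0.0172 by limma with Benjamini-Hochberg adjustment over all genes tested). Of the 10388 genes, 82 (0.789%) passed the test and fell by at least 1 on that scale, and Alas1 was among them.

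The cytosolic enzymes follow in pathway order. Alad, which condenses aminolevulinate to porphobilinogen, was at 168, 162 and 191 in DEHP libraries, against 127, 126 and 145 in Control libraries. The groups did not overlap, and Alad rose by 0.38 on the log2 scale (SE 0.10, limma adjusted p = 0.0202). Uros, which closes the ring, was at 10.6, 12.5 and 16.2 in DEHP libraries, against 9.30, 8.48 and 8.82 in Control libraries. It rose by 0.50 (SE 0.13, limma adjusted p = 0.0179), with the widest relative spread of the 7 genes among DEHP libraries, an SD of 21.8% of the mean. Urod, which trims the side chains of the ring, was at 54.9, 56.4 and 56.0 in DEHP libraries, against 51.1, 51.4 and 52.4 in Control libraries. The groups did not overlap, but the log2 difference of 0.11 (95% interval -0.03 to 0.25) did not pass (limma adjusted p = 0.231).

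At the mitochondrial end, Cpox, which oxidizes coproporphyrinogen, gave the smallest adjusted p of the 7 genes. It was at 57.1, 45.9 and 58.8 in DEHP libraries, against 35.4, 39.0 and 33.3 in Control libraries. It rose by 0.57 on the log2 scale (SE 0.10, limma adjusted p = 0.00364), and the DEHP mean of 53.9 ± 7.02 was 1.5 times the Control mean of 35.9 ± 2.88 (SD, n = 3 each). Ppox, which oxidizes protoporphyrinogen, was at 11.6, 10.5 and 13.7 in DEHP libraries, against 10.4, 9.91 and 11.5 in Control libraries. Fech, ferrochelatase, was at 73.3, 80.1 and 65.7 in DEHP libraries, against 65.0, 68.8 and 64.9 in Control libraries. Both overlapped between groups and neither passed. Ppox differed by 0.15 on the log2 scale (95% interval -0.08 to 0.38, limma adjusted p = 0.326) and Fech by 0.13 (95% interval -0.05 to 0.32, limma adjusted p = 0.261).

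**Figure D1:**
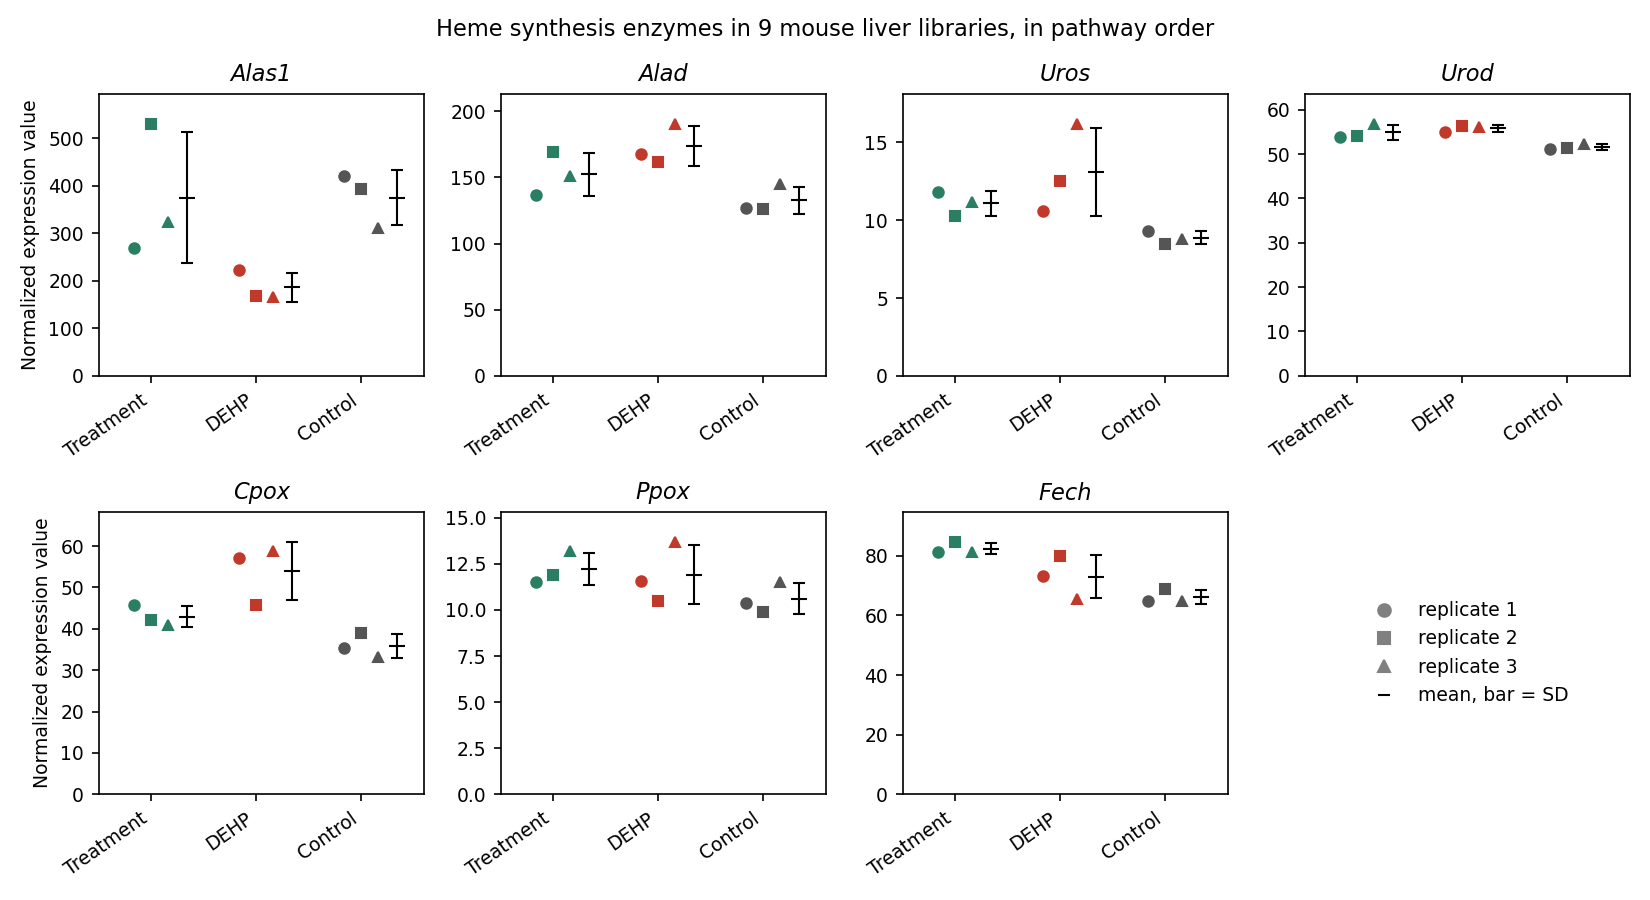
Normalized expression value of each enzyme (vertical axes, starting at 0) in the Treatment, DEHP and Control libraries. Points are libraries, with 1 symbol per replicate number, and bars are the group mean and SD. Alas1 lies between 167 and 222 in DEHP and between 310 and 421 in Control libraries, while Cpox lies between 45.9 and 58.8 in DEHP and between 33.3 and 39.0 in Control libraries.

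In all, 3 of the 7 enzymes rose and 1 fell. Over all genes tested, limma called 2654 of 10388 (25.5%), with 21.6% higher and 3.91% lower. The median log2 fold change was 0.15 for the 7 enzymes and 0.12 for all genes tested. Libraries did not overlap between DEHP and Control for 4 enzymes that were higher and 1 that was lower, against 33.8% and 7.65% of all genes. The calls of Alad and Uros, and the sign of the uncalled enzymes, changed with the scaling. After quantile normalization, after centring on the median gene and after rescaling without the major urinary protein (Mup) genes, Alas1 and Cpox passed and Alad and Uros did not. Alad then differed by 0.08 to 0.27 and Uros by 0.30 to 0.38 on the log2 scale. Mup genes made up 16.1% to 20.3% of the library total in Control, 2.37% to 8.49% in DEHP and 6.53% to 11.6% in Treatment libraries. The part of this share in the rises, of the enzymes and of all genes, was not tested.

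The calls of Alas1, Alad and Uros also rested on single libraries. Alad was lost without Control replicate 1 (limma adjusted p = 0.0753), Control replicate 2 (adjusted p = 0.0682) or DEHP replicate 3 (adjusted p = 0.0705). Uros was lost without Control replicate 2 (adjusted p = 0.0557) or Control replicate 3 (adjusted p = 0.0529). Alas1 was lost without Control replicate 1 (limma adjusted p = 0.0631), DEHP replicate 2 (adjusted p = 0.0525) or DEHP replicate 3 (adjusted p = 0.0604). With Control replicate 3, the Control library in which Adipoq was listed at 0, as the lone control, the log2 fold change of Alas1 was -0.75 (SE 0.36, adjusted p = 0.227). That fit assumes that a lone library varies like the other groups, and Cpox, at 0.67 (adjusted p = 0.0453), was the only enzyme of the 7 called in it. The fold change of Alas1 ran from -1.31 to -0.75 over 19 other settings, with adjusted p from 0.00198 to 0.227. Alas1 was higher in the pair of Control libraries that held fat transcripts, at 421 and 394, than in Control replicate 3, at 310, and the part of those transcripts in the result was not tested. Control replicate 3 lay above all 3 DEHP libraries, but this is 1 library and no test of the fat transcripts.

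**Figure D2:**
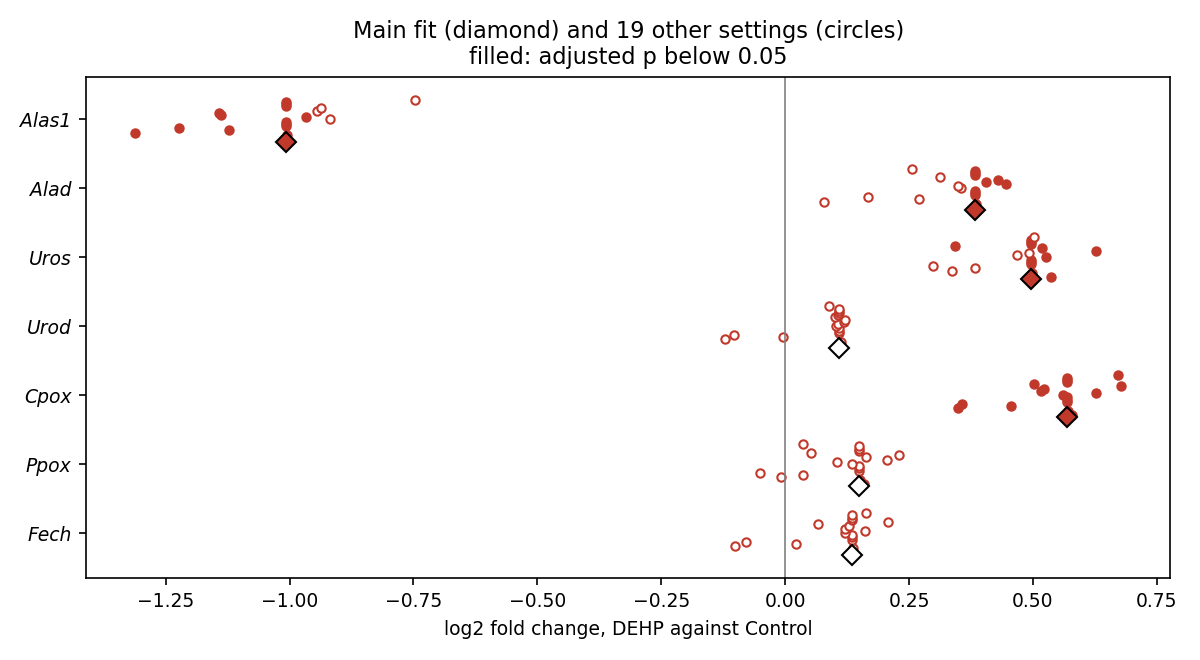
log2 fold change of each enzyme in DEHP against Control (horizontal axis), for the fit reported here (diamond) and 19 other settings (circles, spread vertically for legibility), filled where the adjusted p was below 0.05. Cpox is filled throughout, Alas1 stays below 0 between -1.31 and -0.75, and Urod, Ppox and Fech are open and fall on both sides of 0.

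Ratios between enzymes within a library do not change when the whole library is rescaled. Alas1 made up 37.2%, 31.5% and 29.4% of the summed value of the 7 enzymes in DEHP libraries, against 58.5%, 56.4% and 49.6% in Control libraries. The ratio of Alas1 to Alad, the next enzyme, averaged 1.08 ± 0.23 in DEHP libraries and 2.86 ± 0.63 in Control libraries (SD, n = 3 each), without overlap. The ratio of Cpox to Urod, the enzyme before it, averaged 0.967 ± 0.134 in DEHP libraries and 0.696 ± 0.061 in Control libraries. Here too the groups did not overlap, with a lowest DEHP value of 0.813 and a highest Control value of 0.758. These ratios show unequal change and do not say which of a pair changed.

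**Figure D3:**
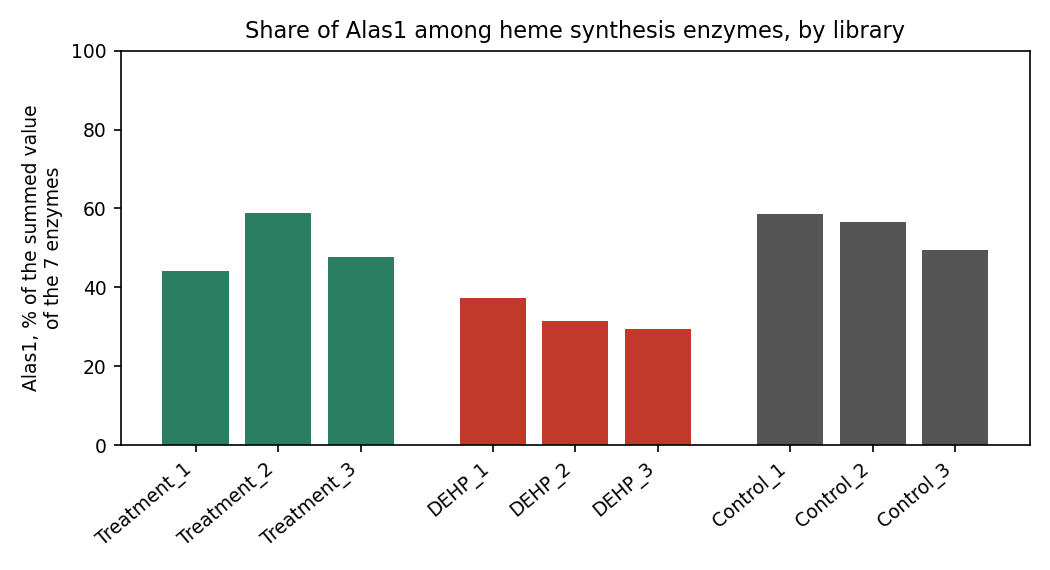
Share of Alas1 in the summed normalized value of the 7 enzymes (vertical axis, percent), with 1 bar per library. The DEHP bars lie between 29.4% and 37.2%, below the Treatment bars (44.1% to 58.8%) and the Control bars (49.6% to 58.5%).

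With polyphenols added to the phthalate, none of the 7 enzymes passed the test against DEHP alone. Alas1 was at 269, 531 and 325 in Treatment libraries, against 222, 169 and 167 in DEHP libraries. All Treatment libraries lay above all DEHP libraries and the Treatment mean of 375 ± 138 was 2.01 times the DEHP mean of 186 ± 31.4 (SD, n = 3 each). The log2 difference of 0.96 (SE 0.24, 95% interval 0.40 to 1.51) had an unadjusted p of 0.00375 and an adjusted p of 0.15 by limma, and the adjusted p ran from 0.0718 to 0.324 over 18 other settings. Cpox was at 45.8, 42.2 and 40.9 in Treatment libraries, against 57.1, 45.9 and 58.8 in DEHP libraries, and its log2 difference of -0.31 (95% interval -0.54 to -0.08) did not pass either (limma adjusted p = 0.212).

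Fech was at 81.3, 84.6 and 81.2 in Treatment libraries, against 73.3, 80.1 and 65.7 in DEHP libraries. It did not overlap, and its log2 difference was 0.18 (95% interval -0.01 to 0.36, limma adjusted p = 0.355). Alad, Uros, Urod and Ppox overlapped between Treatment and DEHP, with log2 differences of -0.19, -0.21, -0.02 and 0.04. Libraries thus did not overlap for 2 enzymes that were higher and 1 that was lower, against 8.89% and 10.4% of all genes. Limma called 0 of all 10388 genes here (0%), and without trend and robust estimates it also called 0. An unadjusted p below 0.05 was reached by 1524 genes (14.7%). Among the 7 enzymes it was reached by Alas1 and Cpox. The median log2 difference was -0.02 for the 7 enzymes and -0.01 for all genes tested.

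Within the Treatment group Alas1 varied most of the 7 enzymes, with an SD of 36.8% of the mean, against 2.31% for Fech and 3.02% for Urod. Treatment replicate 2 held the highest Alas1 value of all 9 libraries, 531. Cyp4a14, a P450 gene that responds to the phthalate, was at 1727, 3743 and 2088 in Treatment libraries, at 5717, 3593 and 3679 in DEHP libraries and at 109, 146 and 95.5 in Control libraries. The Cyp4a14 value of Treatment replicate 2 lay in the range of the DEHP libraries, and those of the other Treatment libraries lay below it. Whether Alas1 follows the response to the phthalate was not tested. Without Treatment replicate 2, the log2 difference of Alas1 between Treatment and DEHP was 0.68 (limma adjusted p = 0.113).

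Against Control, livers of Treatment mice differed in Fech alone by the test. Fech was at 81.3, 84.6 and 81.2 in Treatment libraries, against 65.0, 68.8 and 64.9 in Control libraries. It rose by 0.31 on the log2 scale (SE 0.08, limma adjusted p = 0.0404), in a comparison that called 1085 of 10388 genes (10.4%), 9.68% higher and 0.76% lower. The call was lost in 13 of 19 other settings, among them quantile normalization (0.13, adjusted p = 0.407) and Control replicate 3 as the lone control (0.34, adjusted p = 0.208). It was also lost without any single Control or Treatment library and under the replicate block (adjusted p = 0.0551). The median log2 fold change was 0.20 for the 7 enzymes and 0.11 for all genes tested.

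Alas1 averaged 375 ± 138 in Treatment libraries and 375 ± 57.8 in Control libraries (SD, n = 3 each), and the ranges overlapped. The log2 difference of -0.05 had a 95% interval from -0.60 to 0.50, which holds differences of that size in either direction. Uros was at 11.8, 10.2 and 11.2 in Treatment libraries, against 9.30, 8.48 and 8.82 in Control libraries, a log2 difference of 0.29 (limma adjusted p = 0.166). Cpox differed by 0.25 (adjusted p = 0.140) and Urod by 0.09 (adjusted p = 0.389). Treatment lay above Control without overlap for Uros, Urod, Cpox and Fech, against 31.8% of all genes that were higher and 4.29% that were lower. Alad and Ppox overlapped and differed by 0.20 and 0.19. The Treatment and DEHP comparisons against Control share the 3 Control libraries, so their values are not independent. DEHP against Control and Treatment against DEHP likewise share the 3 DEHP libraries. A fall in the first and a rise in the second are therefore not independent observations.

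**Figure D4:**
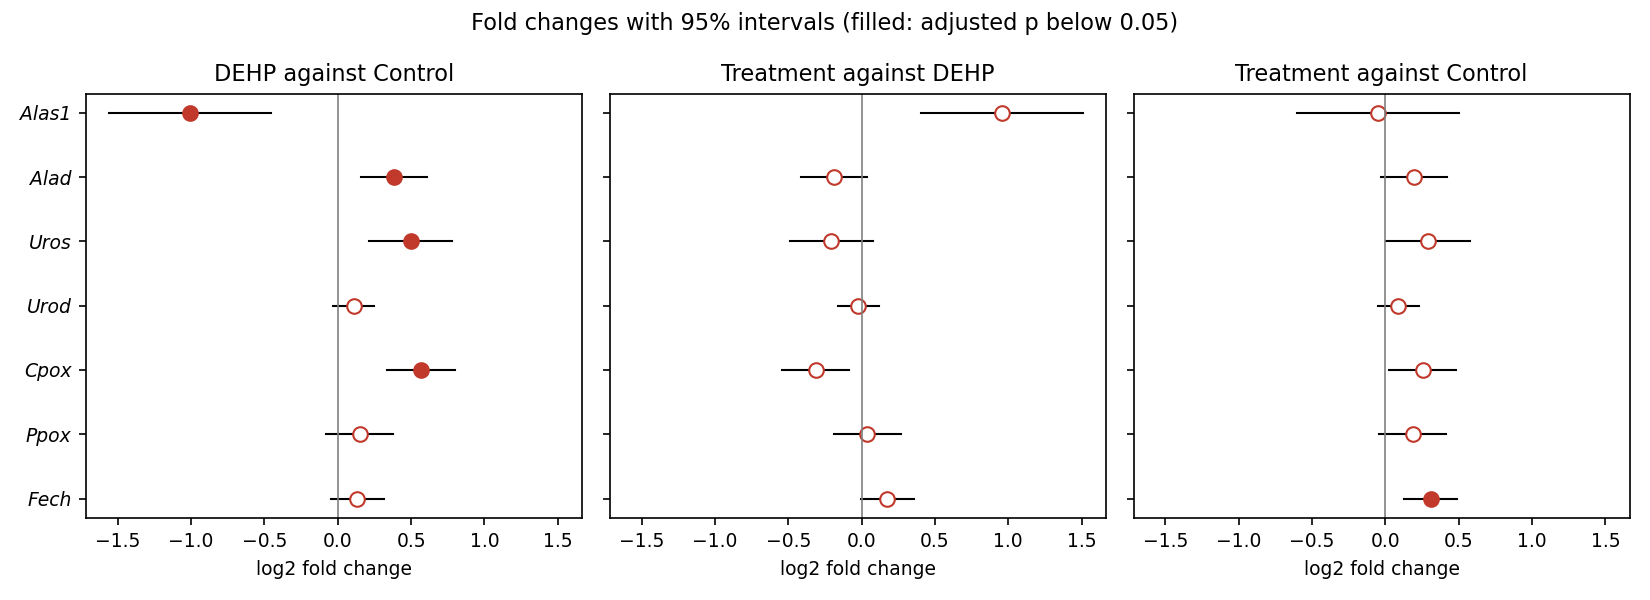
log2 fold change (points) with 95% interval (lines) of each enzyme in 3 comparisons, with filled points at an adjusted p below 0.05. Alas1 is at -1.01 in DEHP against Control, 0.96 in Treatment against DEHP and -0.05 in Treatment against Control, and the filled points are Alas1, Alad, Uros and Cpox in the first panel and Fech in the last.

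On the scale per transcript length, Alas1 had the highest level of the 7 enzymes in each group by mean. The order of means in Control libraries was Alas1, Alad, Fech, Urod, Cpox, Ppox and Uros, and no neighbours in it overlapped. Treatment libraries kept that order, with Ppox and Uros overlapping. In DEHP libraries Alas1, at 186, overlapped with Alad, at 173, Urod, at 55.8, with Cpox, at 53.9, and Uros, at 13.1, with Ppox, at 11.9. Averaged over the 9 libraries, Alas1 stood above 96.6% of tested genes, and Uros, the lowest, above 60.4%.

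Beyond the 7 enzymes, 20 genes of other pathway steps and of mitochondrial heme transport were tested, from a list. In DEHP against Control 9 rose and 0 fell, against 21.6% higher and 3.91% lower over all genes. The list's median log2 fold change was 0.25, against 0.12 for all genes. Pgrmc2, a heme chaperone, was at 32.4, 26.5 and 31.2 in DEHP libraries, against 17.0, 16.4 and 15.6 in Control libraries. It rose by 0.84 on the log2 scale (limma adjusted p = 5.25e-04). Clpx, a mitochondrial unfoldase that activates aminolevulinate synthase in yeast and takes part in its breakdown in human cells, was at 46.0, 29.5 and 57.7 in DEHP libraries, against 15.6, 16.1 and 15.3 in Control libraries. It rose by 1.39 (limma adjusted p = 0.00295).

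In Treatment libraries Clpx was at 25.2, 17.1 and 21.7, and it passed neither against DEHP (log2 difference -0.99, limma adjusted p = 0.131) nor against Control (0.40, adjusted p = 0.266). Suclg1, a subunit of the enzyme that handles succinyl-CoA, the substrate of Alas1, rose by 0.51 in DEHP against Control (limma adjusted p = 0.00296), but was at 0.196 and not called with quantile normalization. Alas2, the red cell form of aminolevulinate synthase and a close relative of Alas1, was at 22.42, 51.07 and 40 in DEHP libraries, against 74.8, 72.5 and 70.6 in Control libraries. The groups did not overlap, and 7.65% of all genes were likewise lower without overlap. The log2 difference of Alas2, -1.0, just missed the threshold (limma adjusted p = 0.0503). Alas2 was named because of these values, and it is itself 1 of 7 tested red blood cell markers. Of these 7, 0 rose and 1 fell by the test, against 21.6% higher and 3.91% lower over all genes, and 6 lay below 0. Their median log2 difference was -0.56, against 0.12 for all genes. The part of red cells in its value was not tested. With quantile normalization 4 genes of the list were called, 3 higher and 1 lower, against 922 higher and 833 lower of all 10388 genes. With the lone control fewer genes of the list were called than with all Control libraries.

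Of 14 tested genes of heme breakdown, carriage and export, 8 rose and 1 fell in DEHP against Control, with a median of 0.32, against 21.6% higher, 3.91% lower and a median of 0.12 over all genes. Fabp1, a fatty acid carrier of the hepatocyte that also binds heme, rose by 1.34 on the log2 scale (limma adjusted p = 5.23e-04). Slc48a1, which moves heme out of lysosomes, was at 52.6, 36.5 and 39.7 in DEHP libraries, against 21.1, 22.9 and 19.9 in Control libraries, and rose by 0.97 (limma adjusted p = 8.09e-04). Abcg2, an exporter of porphyrins, rose by 0.89 (limma adjusted p = 0.00122). Gstp1, a glutathione transferase that binds heme, was the member that fell, by 0.94 (limma adjusted p = 0.00295), but was at -0.42 and not called with quantile normalization. The heme oxygenases that open the ring, named with values already seen, differed in their calls. Hmox2 rose by 0.39 (adjusted p = 0.00813), a call lost with quantile normalization and with rescaling without the Mup genes, where the smaller of its log2 differences was 0.155, and Hmox1, the inducible form, was at 0.25 (adjusted p = 0.187).

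P450 genes are the main users of heme in liver. Of 62 tested, 23 rose and 3 fell in DEHP against Control, against 21.6% higher and 3.91% lower over all genes. The median was 0.15, against 0.12 for all genes. Cyp4a14, a fatty acid hydroxylase and standard reporter of PPARA activity, averaged 4330 ± 1203 in DEHP and 117 ± 26.0 in Control libraries (SD, n = 3 each). The summed level of all 93 listed P450 genes was 26027 to 30824 in Treatment, 31114 to 32035 in DEHP and 19773 to 21619 in Control libraries. The DEHP libraries thus had the higher P450 sum and the lower Alas1 value than the Control libraries, without overlap. Cyp4a10, Cyp4a12a and Cyp2c38 also rose, by 4.51, 1.47 and 1.35 on the log2 scale. Of 23 tested hemoproteins and electron partners outside that family, 9 rose and 2 fell, against 21.6% higher and 3.91% lower over all genes. Their median was 0.17, against 0.12 for all genes. Cyb5b, a cytochrome b5 of the mitochondrial outer membrane, rose by 0.72 and Suox, sulfite oxidase, by 0.63 (limma adjusted p = 8.76e-04 and 0.00132).

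Of the 2 that fell, Por, the reductase that passes electrons to P450 enzymes, had the larger change, and it was named after its values had been seen. It was at 289.8, 392.5 and 347.7 in Treatment libraries, at 232, 227 and 288 in DEHP libraries and at 314, 377 and 345 in Control libraries. It fell by 0.48 on the log2 scale in DEHP against Control (limma adjusted p = 0.0235), a call lost in 6 of 19 other settings. Its DEHP values lay below the Control values without overlap, as did those of 7.65% of all genes. Treatment values lay above DEHP values without overlap, as for 8.89% of all genes, but the nearest were 289.8 and 288. The log2 difference of Por between Treatment and DEHP was 0.46 and did not pass (limma adjusted p = 0.163).

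Of 15 tested regulators that have been linked to Alas1, 2 rose and 1 fell in DEHP against Control, or 3 called in all, a share below the 25.5% called over all genes. The median was -0.01, against 0.12 for all genes. Nr1d1, the heme-binding clock repressor REV-ERB alpha, was at 47.6, 44.7 and 48.5 in Treatment libraries, at 38.3, 51.7 and 71.2 in DEHP libraries and at 17.4, 15.8 and 13.1 in Control libraries. It rose by 1.7 on the log2 scale in DEHP against Control and by 1.55 in Treatment against Control (limma adjusted p = 6.65e-04 and 0.00425). Ppargc1a, a coactivator that drives Alas1 in fasting liver, rose by 0.92 and 0.90 in the same comparisons (adjusted p = 0.00976 and 0.0268), the opposite direction to Alas1 in the first. Its call in Treatment against Control was lost in 9 of 19 other settings, among them quantile normalization, centring and each Control library left out. Arntl, the clock activator BMAL1, was at 0.98 in DEHP against Control and did not pass (adjusted p = 0.0556). The nuclear receptors Nr1i3 (CAR) and Nr1i2 (PXR), which induce Alas1 with P450 genes in response to drugs, were at 0.07 and -0.01 and did not pass in DEHP against Control.

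The circadian clock sets a daily rhythm of Alas1 in liver, and the sources used here do not give the time of day at which tissue was taken. Of 15 tested clock genes, 3 rose and 8 fell in DEHP against Control, against 21.6% higher and 3.91% lower over all genes. The median was -0.52, against 0.12 for all genes. Per3, a period gene, was at 4.89, 6.80 and 6.79 in Treatment libraries, at 2.53, 3.07 and 1.94 in DEHP libraries and at 6.60, 7.38 and 8.33 in Control libraries. Per2, another period gene, fell by 1.24 on the log2 scale in DEHP against Control (limma adjusted p = 0.00641), and Nfil3, a repressor of clock output, rose by 0.87 (adjusted p = 0.0035). Tef, a clock output factor, was at 53.2, 57.6 and 56.3 in Treatment libraries, at 27.5, 43.4 and 27.5 in DEHP libraries and at 58.2, 56.3 and 51.8 in Control libraries. DEHP libraries held the lowest values of Per3 and Tef, as of Alas1, and the part of the clock in the Alas1 result was not tested.

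In Treatment against DEHP, 0 genes of any of these 6 lists were called, and the medians were -0.03 for other pathway steps, -0.08 for breakdown and export, 0.10 for regulators, 0.01 for hemoproteins, -0.01 for P450 genes and 0.30 for clock genes. Per3 had a log2 difference of 1.03 there (limma adjusted p = 0.0761). Without DEHP replicate 2, limma called 6 clock genes, 4 regulators, 1 gene of other pathway steps and 1 P450 gene. Over all 10388 genes it called 86 in that setting. After rescaling without the Mup genes it called 2 clock genes, and 38 over all genes. In Treatment against Control, 3 genes of other pathway steps rose and 0 fell, 6 of breakdown and export rose and 1 fell, 2 regulators rose and 0 fell, 6 hemoproteins rose and 0 fell, 15 P450 genes rose and 1 fell, and 1 clock gene rose and 0 fell, against 9.68% higher and 0.76% lower over all genes. With the lone control, fewer genes were called in DEHP against Control than with all Control libraries, in each list and over all genes. With quantile normalization, that comparison called 17 P450 genes higher and 13 lower, and 3 hemoproteins higher and 3 lower. Over all 10388 genes it then called 922 higher and 833 lower.

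**Figure D5:**
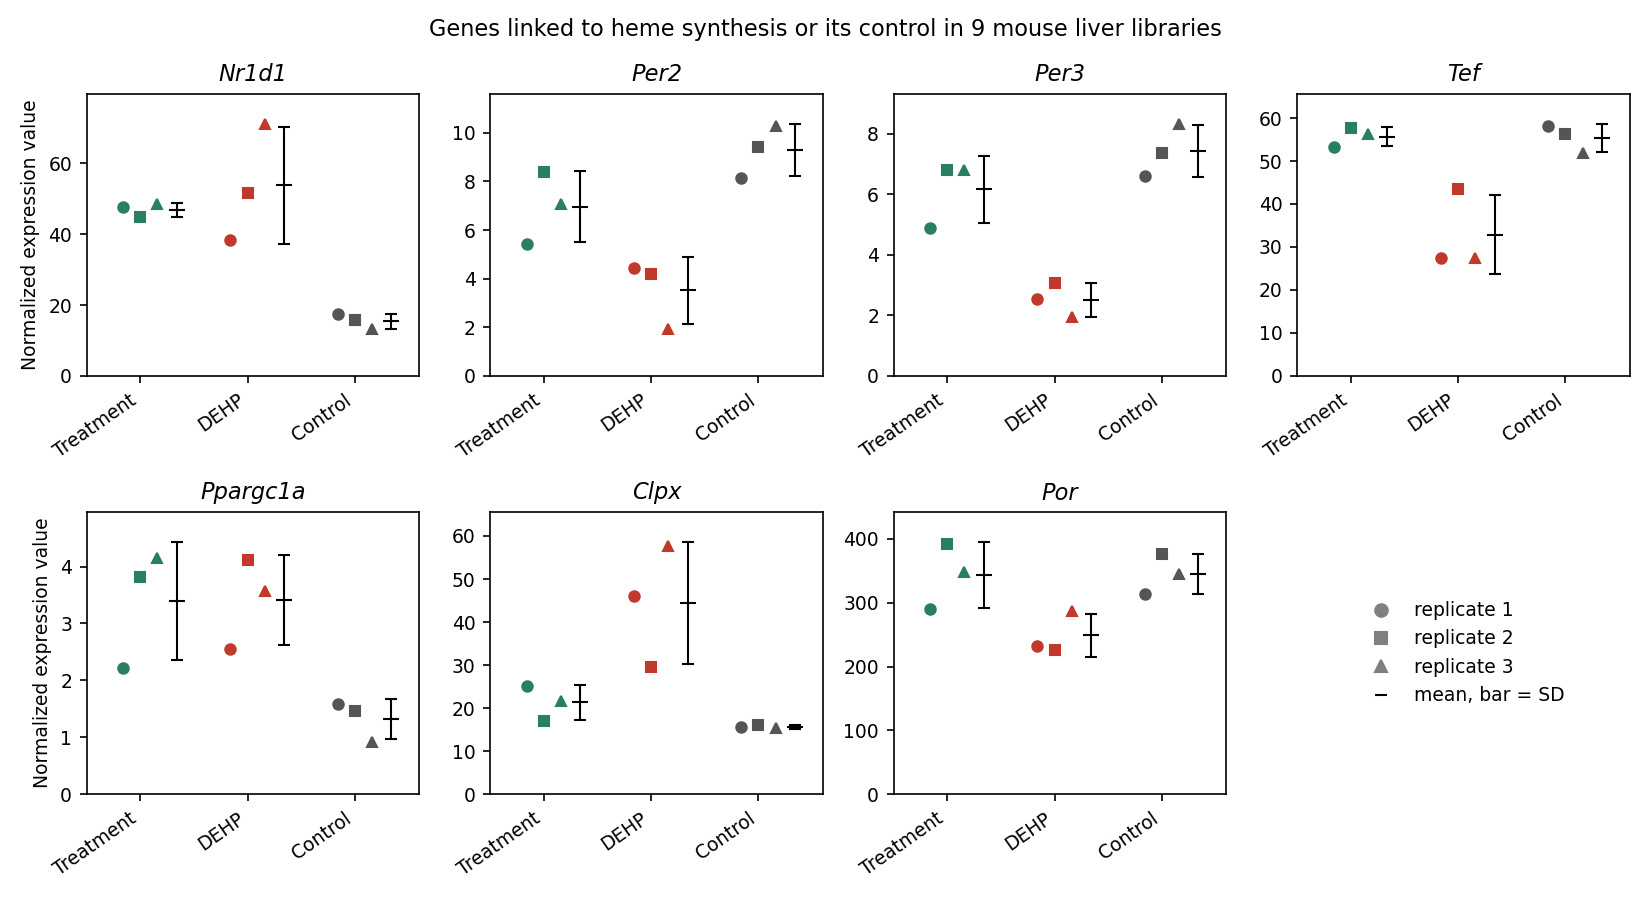
Normalized expression value (vertical axes, starting at 0) of 7 genes linked to heme synthesis or its control in the Treatment, DEHP and Control libraries, with points for libraries and bars for the mean and SD. Per3 and Tef are lowest in the DEHP libraries (1.94 to 3.07 and 27.5 to 43.4), and Nr1d1 is at 38.3 or more in all Treatment and DEHP libraries and at 17.4 or less in Control libraries.

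Genes whose pattern over the 9 libraries was most like that of an enzyme were found by Pearson correlation of log2(value + 1), as a description only. For Alas1 they were Rabl6 (r = 0.99), Limd1 (r = 0.95) and Swap70 (r = 0.92). Rabl6 was at 7.32, 8.52 and 7.37 in Treatment libraries, at 6.77, 6.10 and 6.17 in DEHP libraries and at 8.25, 7.97 and 7.64 in Control libraries, a much narrower range than that of Alas1. For Cpox they were Acnat2 (r = 1.00), an acyltransferase of fatty acid metabolism, Slc27a4 (r = 0.99), a fatty acid transport protein, and Nt5e (r = 0.99). Acnat2 was at 25.2, 20.9 and 15.4 in Treatment libraries, at 62.6, 25.6 and 61.4 in DEHP libraries and at 8.53, 13.0 and 6.77 in Control libraries. For Alad they were Timm13, Snrpc and Ndufa8 (r = 0.98 each), and Ndufa8 is a subunit of respiratory complex I. For Uros they were Fbxw8, Dtymk and Ube2u (r = 0.94 to 0.96), for Urod Depp1, Commd3 and F2r (r = 0.97 each), for Ppox Ocel1, Steap3 and Ankrd39 (r = 0.93 to 0.96) and for Fech Rnf19b, Sh3d19 and Heca (r = 0.97 each).

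Reads of overlapping genes could not be separated by strand as far as the labels tell. In the GENCODE M21 annotation, 791 exon bases of Ppox overlap with B4galt3 on the opposite strand, and B4galt3 was at 4.30, 5.83 and 5.77 in Treatment libraries, at 6.52, 5.36 and 5.56 in DEHP libraries and at 4.09, 5.16 and 4.79 in Control libraries. The value of Ppox, which was higher at 9.91 to 13.7, is therefore uncertain. Cpox shares 204 exon bases with Gpr15, which was at most 0.03 in any library. Alas1 shares 465 exon bases with an antisense transcript that was not analysed here, and Alad, Uros, Urod and Fech share none.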

How the data were processed

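RNA of 9 mouse liver libraries was sequenced, and the submitters' processing notes name CASAVA 1.7, the build mm9 and limma, without saying which step used which. The authors deposited a normalized expression signal per gene symbol, and the sources used here do not name its unit. Library totals of 789076 to 863300 are not depths, so counting error is unknown and no read counts were tested. Relative depth inferred from low values differed by at most 7.18% between libraries. That step kept only values close to the smallest of each gene, so it could not show large differences in depth. Of 18148 symbols, 18078 matched RefSeq names and 1212 were at 0 in every library. Differences were tested with limma 3.58.1 in R 4.3.3, with trend and robust estimates, on log2(value + 1), which understates changes of low genes. All 9 libraries entered the fit, for 10388 genes that reached a value of 1 in 3 or more libraries. P-values were adjusted by Benjamini-Hochberg over these genes, and genes with an adjusted p below 0.05 were called. The procedure was tested on simulated data. Tables were handled with pandas 2.3.3 and figures drawn with matplotlib 3.10.9.

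The enzymes and gene lists were chosen with earlier results of these data known, and lists were described by counts and medians without a set test. All 7 enzymes are named, and from each list the 4 or fewer called genes lowest in adjusted p. Alas2, Arntl, Hmox1, Hmox2, Por, Nr1i3, Nr1i2 and the overlapping genes lie outside that rule and were named after their values were seen. Alternatives covered the pseudocount (0.1), the filter, scaling, the limma options, the samples in the fit, a replicate block, each library left out, and Control replicate 3 as the lone control. Counts for the lists under these alternatives were added after seeing the data. A further gene of the pathway is not reported here.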

Additional observations from a re-analysis of the deposited data

How the results depend on the processing

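Alas1 and Cpox kept their direction in DEHP against Control under all 19 alternatives, and Alas1 passed in 15 of them. The enzymes called numbered 4, but 2 with quantile normalization, with centring on the median gene and with rescaling without the Mup genes, 1 with the lone control, and 2 to 4 with a library left out. Genes called in DEHP against Control numbered 2654 (2248 higher, 406 lower), 1755 (922 higher, 833 lower) after quantile normalization, 757 with the lone control and 1703 to 2727 with a library left out, the lowest without Control replicate 1. Centring gave 1271 higher and 736 lower, and rescaling without Mup genes 804 higher and 996 lower. Under the last, quantile and centring alternatives Urod reversed to -0.103, -0.121 and -0.0037, and under the last and quantile Ppox to -0.0501 and -0.0084 and Fech to -0.079 and -0.102. In Treatment against DEHP, where 0 genes were called, 1 was called without a filter, 5 with equal totals, 38 without Mup genes, 1 with the 6 libraries compared and 0 to 86 with a library left out, the highest without DEHP replicate 2. Urod reversed to 0.0582 with equal totals, 0.0472 with quantile normalization and 0.103 without Mup genes, and with a library left out Ppox ran from -0.0428 (without DEHP replicate 2) to 0.1335. In Treatment against Control, 1085 genes (1006 higher, 79 lower) became 582 without a filter, 2019 with equal totals, 282 (172 higher, 110 lower) with quantile normalization, 276 (180 higher, 96 lower) with centring, 363 (298 higher, 65 lower) without Mup genes, 10 with the lone control and 254 to 1184 with a library left out, the lowest without Treatment replicate 2. The single enzyme called there became 0 without a filter, under the 3 scalings just named, without trend and robust estimates and with the lone control, and 0 to 1 with a library left out. Alas1 reversed there to 0.0345 with equal totals and 0.211 with the lone control, and ran from -0.3307 (without Treatment replicate 2) to 0.1578 (without Treatment replicate 1) with a library left out. Alad reversed to -0.0119 with quantile normalization, and Urod to -0.074 with quantile normalization, -0.03 with centring and -0.0004 without Mup genes. The causes of these shifts were not tested. The replicate numbers gave no sign of pairing. Correlations of same-numbered libraries ran from -0.263 to 0.170, and those of other pairs between groups from -0.139 to 0.258. The labels do not say whether a number marks a shared batch, and these correlations cannot decide it. With the replicate block, 2271, 0 and 578 genes and 4, 0 and 0 enzymes were called in DEHP against Control, Treatment against DEHP and Treatment against Control.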
